A study of Mus musculus with 23 samples.

Results

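Mouse embryonic stem (ES) cells without any Argonaute protein were compared with ES cells that keep only mouse Ago2, gene by gene, in strand-specific mRNA sequencing of polyadenylated RNA. The Argonaute-free side held the clones C62 and C86, genotype Blm-/-;Ago1,2,3,4-/-;CreERT2, with 1 library each. The other side was the line B9, genotype Blm-/-;Ago1,3,4-/-, with 2 libraries. These are 4 of the 23 samples of the series, and the comparison covers all 18412 genes of the exon and intron tables. The same tables hold E7, genotype Blm-/-;Ago1,2,3,4-/-;CreERT2;hAgo2fl, which lives on a floxed human Ago2 transgene (n = 3), and the wild-type line AB2.2 (n = 2), both used for context. All were grown on gelatin with serum and LIF, and all but AB2.2 are Blm-/-, mutant in a RecQ helicase.

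B9 and each clone are single cell lines, and the clones also carry CreERT2, a Cre recombinase fused to the tamoxifen-binding part of the estrogen receptor. Differences between the clones and B9 due to Argonaute loss, to CreERT2 or to events in single clones therefore cannot be told apart from these libraries alone. The p-values below measure the spread between these libraries. Values are normalised reads, a level on the authors' scale that is not divided by gene length, and changes are log2 clones over B9, also where 1 number stands in brackets after a gene. The deposited columns are group means, from which library values were worked out for all but 102 values of E7. Within a group the deepest library is number 1, and it is not known which clone library is C62 and which is C86.

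Argonautes hold microRNAs and carry out their action on messages: a loaded Argonaute pairs with a message through the seed, bases 2 to 8 of the microRNA, and brings in Tnrc6 proteins, which recruit deadenylases that shorten the message's life. Ago2 can also cut its targets. In ES cells most microRNAs come from the miR-290 cluster, with miR-302 as its relative, and from the miR-17 to miR-92 clusters, which hold down cell-cycle inhibitors and other genes that slow the passage into S phase. Differentiated cells are rich in let-7, and the RNA-binding protein Lin28a blocks the maturation of let-7 in ES cells.

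The microRNAs at the centre of what follows fall into seed families. Their mature sequences (RefSeq, GRCm38.p6) are given with the seed in capitals. The first 4 share 1 seed, the miR-17 family has the same letters moved by 1 base, miR-92a has another, and let-7 is shown because its regulator Lin28a had one of the largest falls.
miR-291a-3p: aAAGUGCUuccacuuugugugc
miR-294-3p: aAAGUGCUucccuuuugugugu
miR-295-3p: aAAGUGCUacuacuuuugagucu
miR-302b-3p: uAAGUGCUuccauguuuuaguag
miR-17-5p: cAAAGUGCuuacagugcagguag
miR-20a-5p: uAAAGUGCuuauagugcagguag
miR-92a-3p: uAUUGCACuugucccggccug
let-7a-5p: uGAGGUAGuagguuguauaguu
let-7g-5p: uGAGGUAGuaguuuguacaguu

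A match to the first seed reads AGCACTT in the message, a match to let-7 CTACCTC. Both were searched in annotated 3′ UTRs on the strand of the message. AGCACTT stands, outside stretches like the B1 repeat, in 2045 of 13161 tested genes with a 3′ UTR (15.5%), and CTACCTC in 1397 (10.6%). AGCACTT overlaps the miR-17 match GCACTTT, and AGCACTTT holds both. The matches in the genes described first are shown with their surroundings, the match in capitals (GRCm38, the build called mm10 in the submitters' processing notes). A match is a stretch of letters and not a measured binding site.
Lats2 (chr14:57691076-57691104, minus strand): agtatggaaagAGCACTTattttgtggat
Lats2 (chr14:57690977-57691005, minus strand): ttgtatctgatAGCACTTgtccacagcta
Cdkn1a (chr17:29099817-29099845, plus strand): cagacctgaatAGCACTTtggaaaaatga
Cdkn1a (chr17:29100489-29100517, plus strand): gtgggtgtcaaAGCACTTagtgggtctga
Lefty1 (chr1:180938202-180938230, plus strand): actgtatgcgaAGCACTTacatgtataga
Lefty2 (chr1:180897906-180897934, plus strand): cacccagtttaAGCACTTacatgggtaaa
Rbl2 (chr8:91123819-91123844, plus strand): tttttcaataaAGCACTTataaatta
Irf2 (chr8:46846653-46846681, plus strand): ccttatcttgaAGCACTTacaataggcct
Tgfbr2 (chr9:116089870-116089898, minus strand): gggatagcgttAGCACTTgacaatcagtc
Tgfbr2 (chr9:116087761-116087789, minus strand): tcaaaacctaaAGCACTTattttcaatct
Lin28a, let-7 match (chr4:134005179-134005207, minus strand): agcctgttgaaCTACCTCatttttgccga
Lin28a, let-7 match (chr4:134004541-134004569, minus strand): tcgccacaaacCTACCTCactgtgttgaa

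The clone libraries held 53.7 and 19.5 M exon reads and the B9 libraries 29.2 and 26.5 M. Introns took 11 and 7.9% of the reads in the clones and 9.55 and 15.8% in B9. In exons the clone libraries differed from each other more than the libraries of any other genotype, with a median absolute log2 difference of 0.57, against 0.366 in B9. In introns this difference was 0.54 in the clones and 0.54 in B9. Of 15 fibroblast and feeder markers, Col3a1 and Twist2 were at 0 in all 4 libraries, and the summed level of the list was 2001 and 1481 in the clones and 1658 and 1132 in B9. Of 11 markers that define ES cells 10 were not called, among them Pou5f1 with 32151 and 26703 normalised reads in the clones and 46393 and 36012 in B9, and Nanog with 45578 and 23255 in the clones and 29096 and 39873 in B9. Lin28a was the only member called. Of 7 tested fibroblast and feeder markers 0 were higher and 1, Col6a2, was lower, a call lost with any 1 of the 4 libraries left out.

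The targeted genes were read first. Ago1 had 0 reads in the clones and in B9. Ago2 exons had 5199 and 6439 normalised reads in the clones and 5876 and 7593 in B9, and the libraries overlapped (log2 change -0.21, SE 0.315, adjusted p = 0.692), so the exon level does not tell the Ago2-free clones from B9. The reads within Ago2 introns did: 1402 and 1920.2 in the clones and 138 and 301.5 in B9 (log2 change 3.00, SE 0.444, adjusted p = 0.0061). Ago3 exons had 2146 and 578 in the clones and 1326 and 1568 in B9, and Ago4 exons 25.1 and 25.3 in the clones and 5.75 and 6.73 in B9. Where the alleles were cut is not given in the sources used here, and reads outside a deleted part do not check the label. Blm, mutant in both, had 2042 and 1095 in the clones and 3159 and 3702 in B9 (log2 change -1.19, SE 0.305, adjusted p = 0.0294). The call of Blm was lost without clone library 2, B9 library 1 or B9 library 2 (highest adjusted p = 0.135).

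Esr1, the estrogen receptor whose hormone-binding part is the ERT2 of CreERT2, followed the CreERT2 label. It had 305 and 551 normalised reads in the clones and 0 in both B9 libraries. E7, which carries CreERT2, had 314, 269 and 181, and AB2.2, which does not, 2.23 and 0. The clones were at least 149-fold above B9, with 3 reads per library as the floor for B9. Introns of Esr1 had 42.2 and 19.6 in the clones and 0 and 1.34 in B9, without a test. In exons, reads of the mouse Esr1 gene and of the transgene cannot be told apart here. The source of the intron reads was not tested.

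Many genes differed. Of 13243 genes tested, 1710 (12.9%) were called in limma at an adjusted p below 0.05: 997 (7.53%) were higher in the clones and 713 (5.38%) lower. At least 2-fold, 904 were called higher and 629 lower. The clone libraries lay both above or both below both B9 libraries for all 1710, which is also true of 27.9% of all genes tested on the higher side and of 27.7% on the lower side. Calls depended on single libraries. Without clone library 1 there were 3453 calls, without clone library 2 797, without B9 library 1 405 and without B9 library 2 507, where the lone library left is assumed to vary like the other genotypes. A fit of the clones and B9 alone gave 1065 calls, of which 950 were among the 1710, and weights per library gave 543, all among them. A set of 253 genes, 187 higher and 66 lower, was called in each of the 4 fits that left out 1 library. 

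Genes of chromosome 8 lay higher in the clones along most of its length. Of its 714 tested genes 134 (18.8%) were higher and 4 lower, against 863 higher of 12497 (6.91%) on all other chromosomes but Y. The median log2 change on chromosome 8 was 0.51, with 0.46 in clone library 1 and 0.63 in clone library 2, and 0.56 for introns. In consecutive windows of 20 Mb it was 0.19 to 0.63. The lowest of these, from 40 to 60 Mb, which holds Irf2, had a median of 0.47 in clone library 1 and -0.10 in clone library 2 over 48 genes. In the other windows the medians were 0.29 to 0.67 in clone library 1 and 0.46 to 0.72 in clone library 2. Against AB2.2 the median on chromosome 8 was 0.35 in the clones and -0.12 in B9. Several genes named below lie there (Rbl2, Irf2, Ido2, Adgrg3, Klf2, Esrp2, Cdh3, Itgb1, Jund), and the part of this shift in their changes was not tested. Of the 1710 calls, 1571 lay outside chromosomes 8 and Y, a count made after seeing the data and without a new fit.

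The sex chromosomes differed between the clone libraries. Y-linked Ddx3y, an RNA helicase, had 0.964 and 987 normalised reads in the clones and 2157 and 2561 in B9. Eif2s3y, a subunit of a translation initiation factor, had 0 and 616 in the clones and 1577 and 2111 in B9, and Uty, a demethylase relative, 0 and 324 in the clones and 774 and 899 in B9. Clone library 1 was thus at or near 0 for these 3 genes, and clone library 2 lay below both B9 libraries. Uba1y, an E1 enzyme gene, had 0.964 and 1366 in the clones and 386 and 619 in B9, so clone library 2 was the highest there. Of the 7 Y genes tested only Zfy1, a zinc-finger factor, was called (0 and 34.7 in the clones and 141 and 369.9 in B9, adjusted p = 0.0242, lost without B9 library 1 or B9 library 2 (highest adjusted p = 0.113)). On X the median log2 change was -0.08 in clone library 1 and -0.56 in clone library 2, with 23 genes higher and 54 lower.

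**Figure D1:**
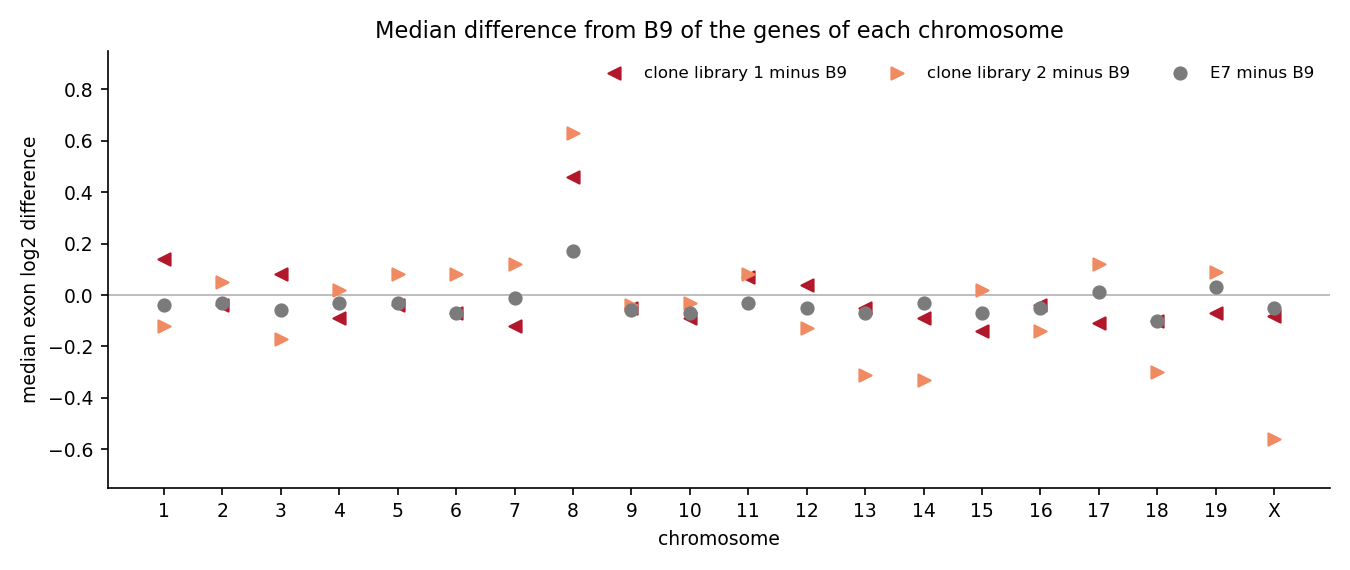
Median log2 difference of exon reads from B9 over the tested genes of each chromosome but Y, for clone library 1, clone library 2 and the mean of E7. On chromosome 8 the clone libraries stand at 0.46 and 0.63, and they part on X at -0.08 and -0.56.

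Genes known from earlier work as targets of the ES-cell microRNAs rose in most cases. Of 19 tested members 12 were higher and 0 lower (63.2% higher, against 7.53% of all genes tested), and the median log2 change was 1.43, against -0.02 over all genes. The median was 2.03 in clone library 1 and 1.17 in clone library 2. For introns the median was 0.65 over 17 members, and for exon minus intron 0.87. All gene lists here were chosen with earlier results of these data known. Their shares, also at 96 h, are descriptions and not tests.

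Lats2, a kinase of the Hippo pathway, had the smallest adjusted p of the list. It had 2679.8 and 3032 normalised reads in the clones and 205 and 182 in B9 (log2 change 3.88, SE 0.293, adjusted p = 0.000172). E7 had 514, 554 and 394 and AB2.2 257 and 215, so both clones stood above all 7 other libraries. Its introns had 144 and 176 in the clones and 58.6 and 38.3 in B9 (log2 change 1.73, adjusted p = 0.097). Rbl2, the pocket protein p130 that holds E2F factors, had 2527 and 1758 in the clones and 289 and 355 in B9 (log2 change 2.71, SE 0.311, adjusted p = 0.00134). Introns of Rbl2 changed by 0.65 (adjusted p = 0.561). Cdkn1a, the inhibitor p21 of cyclin-dependent kinases, had 5207 and 7236 in the clones and 800.4 and 1918 in B9 (log2 change 2.31, SE 0.441, adjusted p = 0.00979).

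Nr2f2, an orphan nuclear receptor, was close to 0 in B9. It had 137 and 345 normalised reads in the clones and 3.83 and 3.84 in B9 (log2 change 5.50, SE 0.682, adjusted p = 0.00173). Its introns had 35 and 76.3 in the clones and 0 in both B9 libraries (adjusted p = 0.0195). Nr2f2 exons had 45.5, 35.7 and 84.3 in E7 and 15.6 and 18.5 in AB2.2, so B9 was the lowest genotype. Clones against E7 was 2.06 (adjusted p = 0.123). Irf2, a repressor of interferon genes, had 282 and 311 in the clones and 0 and 4.8 in B9 (adjusted p = 0.0078). The B9 value of Irf2 is 5 reads in 1 library. Arhgap26, a GTPase-activating protein, had 2871 and 938 in the clones and 197 and 311 in B9, and Casp2, a caspase, 2595 and 2473 in the clones and 1148 and 1048 in B9. Casp2 introns had 219 and 156 in the clones and 274 and 303 in B9 (log2 change -0.63, adjusted p = 0.377).

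Btg2, an antiproliferative cofactor, and Ei24, a protein of the endoplasmic reticulum, were also called, with log2 changes of 1.42 and 1.43, and Tgfbr2, Lefty1 and Lefty2 of the list are described with the Nodal pathway. The 7 members not called had changes of -0.47 (Rhoc) to 0.57 (Bcl2l11), among them Wee1 at 0.35, and Dkk1 was below the filter on low values. By library left out, 10, 9, 6 and 8 members were called higher without clone library 1, clone library 2, B9 library 1 and B9 library 2. Lost calls, 1 library left out at a time, were Tgfbr2 and Btg2 without clone library 1, Cdkn1a, Tgfbr2 and Irf2 without clone library 2, Cdkn1a, Tgfbr2, Btg2, Casp2, Irf2 and Arhgap26 without B9 library 1, and Tgfbr2, Btg2, Casp2 and Ei24 without B9 library 2.

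**Figure D2:**
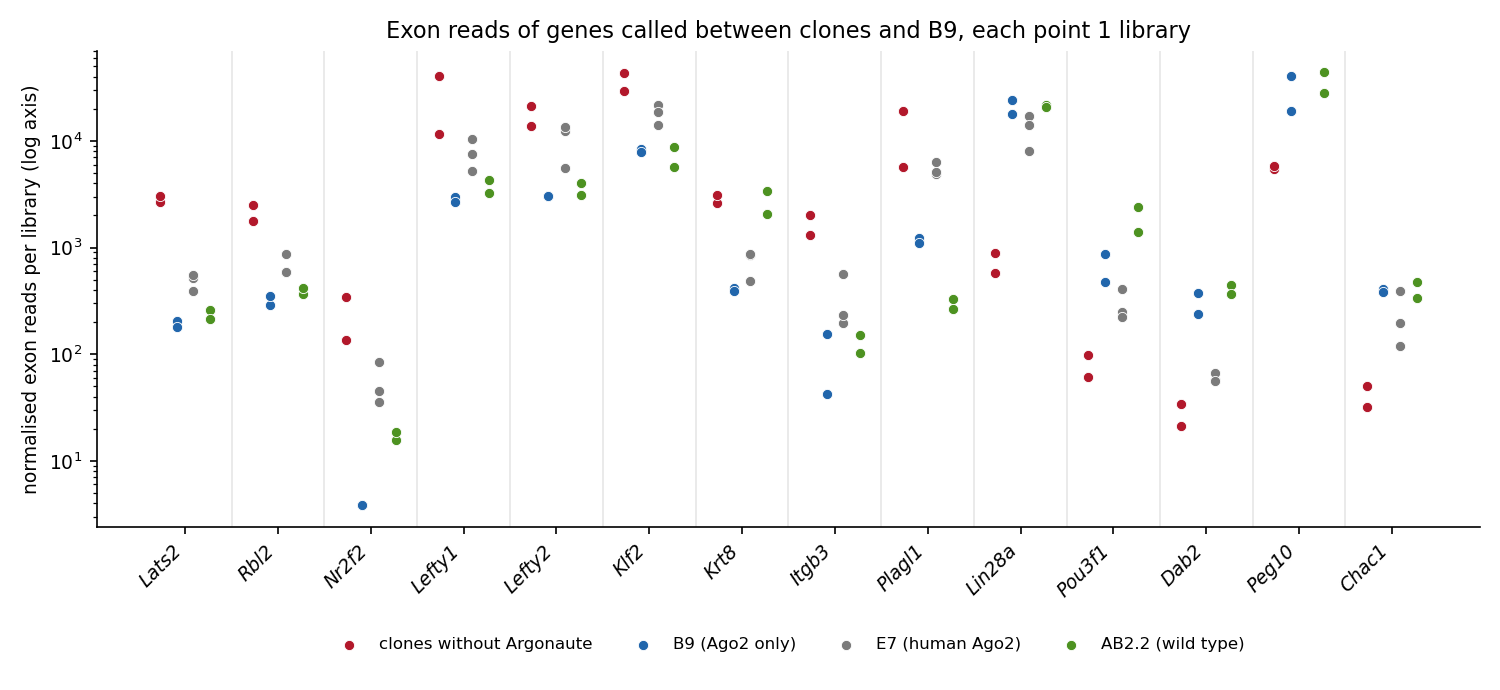
Normalised exon reads (log axis) of 14 genes in each library of the clones, B9, E7 and AB2.2; each point is 1 library. Lats2, Rbl2, Nr2f2 and Itgb3 lie higher in both clones than in every B9 library, and Lin28a, Dab2, Pou3f1 and Chac1 lower; Peg10 has no E7 point, because its E7 libraries could not be worked out.

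Across the transcriptome, genes with the seed match AGCACTT in the 3′ UTR leaned upwards, more in clone library 1 than in clone library 2. Of 2045 such genes 13.2% were higher and 3.23% lower, against 6.5 and 5.79% of the 11116 genes with no match, and the median log2 change was 0.12 with a match and -0.04 without. In clone library 1 the medians were 0.25 with a match and -0.05 without, and in clone library 2 they were 0.04 with a match and -0.01 without. With 1 match the median was 0.10 (0.23 and 0.03 in the clone libraries), and with 2 matches 0.24 (0.36 and 0.16). With 3 or more it was 0.27 over 71 genes (0.57 and -0.01). In clone library 2 it was thus higher with 2 matches than with 1, but not with 3 or more. Introns of genes with a match had a median of -0.05, and exon minus intron 0.19. E7, which keeps human Ago2, leaned the same way against B9, with a median of 0.08 with a match and -0.04 without. Clones against E7 had medians of 0.05 with a match and 0.02 without. With 3 or more matches the medians were 0.26 for E7 against B9 and -0.04 for clones against E7. The lean over B9 is thus not particular to the clones. These are descriptions over genes, not tests.

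Genes with a match have longer 3′ UTRs, and the clone libraries differed by UTR length: genes with UTRs under 500 bases had a median of -0.17 in clone library 1 and 0.16 in clone library 2, and those over 4000 bases 0.18 and -0.17. Within UTRs of 1000 to 2000 bases the medians were 0.19 with a match (498 genes; 0.23 and 0.14 in the clone libraries) and -0.08 without (2853 genes). With 2 or more matches in UTRs of that length the median was 0.65 over 34 genes (0.74 and 0.78 in the clone libraries), of which 9 were higher and 0 lower. In UTRs of that length clones against E7 had medians of 0.14 with a match and -0.02 without. E7 against B9 had 0.05 with a match and -0.05 without.

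Genes with matches to other seeds that ES cells use had medians of 0.16 for the miR-17 family (GCACTTT, 14.2% of genes), 0.11 for the miR-92 family (GTGCAAT, 7.32%) and 0.08 for the miR-130 family (TTGCACT, 11.5%). In clone library 1 these were 0.28, 0.19 and 0.20, but in clone library 2 only 0.06, 0.01 and -0.02. The medians were 0.04 for miR-19 (TTTGCAC, 13.1%), 0.03 for miR-15/16 (TGCTGCT, 24.3%) and -0.06 for miR-26 (TACTTGA, 11.1%). For miR-19 and miR-26 the clone libraries had opposite signs, with 0.19 and 0.13 in library 1 and -0.04 and -0.21 in library 2, and for miR-15/16 the values were 0.08 and 0.00. Seeds of microRNAs typical of other tissues had medians of -0.02 for let-7, 0.04 for miR-9 (ACCAAAG, 13.8%), -0.01 for the miR-1 family (ACATTCC, 11.2%), -0.07 for miR-223 (AACTGAC, 9.26%) and 0.01 for miR-142 (ACACTAC, 6.82%). Genes whose only AGCACTT lies in a B1-like stretch, which ends in the same letters, had a median of -0.07 over 203 genes.

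**Figure D3:**
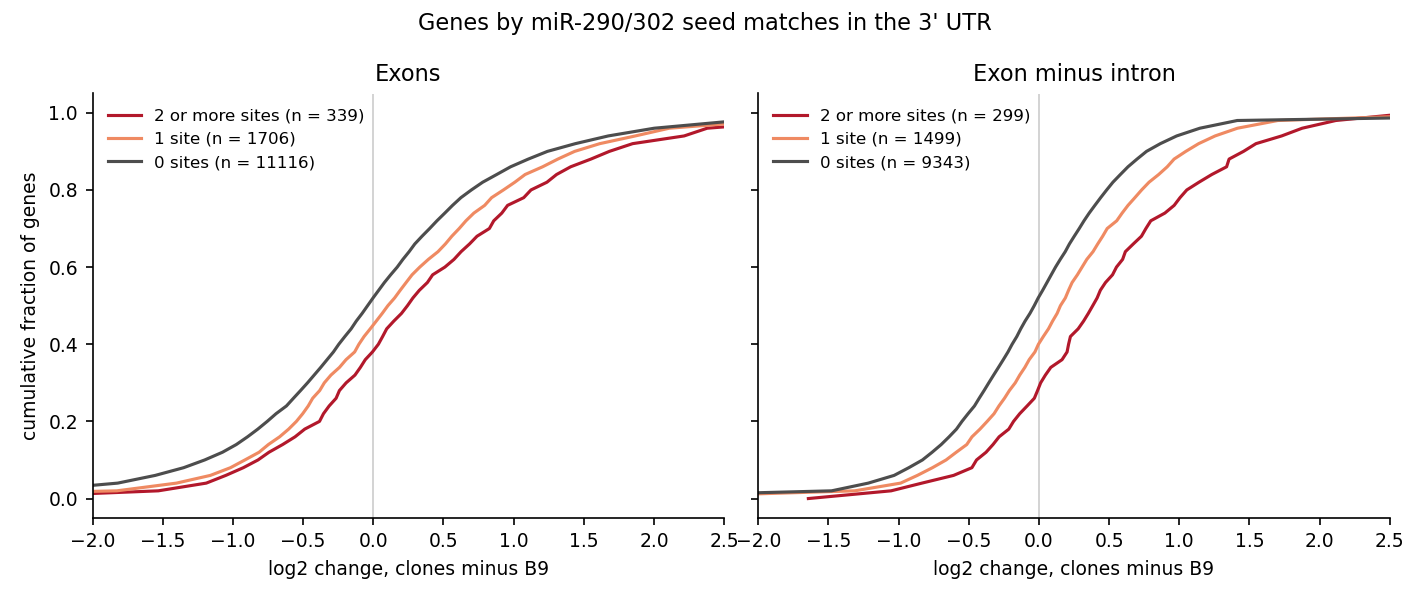
Cumulative share of genes by log2 change, clones over B9, for genes with 2 or more, 1 and 0 matches AGCACTT in the 3′ UTR, for exons (left: 339, 1706 and 11116 genes) and for exon minus intron (right: 299, 1499 and 9343 genes). The curves of genes with matches lie to the right of the curve without, by a median of 0.24 against -0.04 on the left for 2 or more matches against 0; with 2 or more matches the median is 0.43 in clone library 1 and 0.13 in clone library 2.

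Lin28a, the RNA-binding protein that blocks let-7 maturation, had the smallest adjusted p of all genes tested. It had 891 and 579 normalised reads in the clones and 24285 and 17764 in B9, a level 28.9-fold higher in B9 (log2 change -4.85, SE 0.353, adjusted p = 0.00017). E7 had 17075, 14050.5 and 8029.8 and AB2.2 21553 and 20642, so the clones were far below all 7 other libraries. Its introns had 8.76 and 11.7 in the clones and 105 and 78.6 in B9 (log2 change -3.04, adjusted p = 0.0528). Against E7 the fall was -4.11 (adjusted p = 0.000553).

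Few other genes that let-7 is known to target were called. Of 18 let-7 targets 0 were higher and 2 lower (11.1%, against 5.38% of all genes), with a median of -0.20. Nras, a small GTPase, had 3197 and 2392 normalised reads in the clones and 5515 and 6942 in B9 (log2 change -1.16, adjusted p = 0.0136, lost without B9 library 2 (highest adjusted p = 0.0944)). Hmga2, a chromatin protein, had 1629.99 and 823 in the clones and 655 and 231 in B9 (log2 change 1.57, adjusted p = 0.0951), and Lin28b, the sister gene of Lin28a, changed by 0.36 (adjusted p = 0.344).

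The Nodal pathway signals through Smad2 and Smad3 in ES cells, and Lefty1 and Lefty2 are its secreted inhibitors as well as its targets and microRNA targets. Lefty1 had 11504 and 40378 normalised reads in the clones and 2948 and 2679 in B9 (log2 change 2.94, SE 0.488, adjusted p = 0.00553). Lefty2 had 13761 and 21194 in the clones and 3016 and 3065 in B9 (log2 change 2.49, SE 0.393, adjusted p = 0.00465). For both genes each clone exceeded each B9 library, and library 2 was the higher clone.

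Nodal itself, the ligand, had 4653 and 4058 in the clones and 2754 and 2478 in B9 (log2 change 0.73, SE 0.215, adjusted p = 0.0467). Of the signal carriers, Smad3 had 1691 and 2538 in the clones and 765 and 864 in B9 (adjusted p = 0.0153) and its DNA-binding partner Foxh1 changed by 0.97 (adjusted p = 0.0366). Of the receptors, Tgfbr2 had 255 and 160.1 in the clones and 30.7 and 44.2 in B9 (adjusted p = 0.0325).

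Of 19 Smad2/3 targets 6 were higher and 0 lower (31.6% higher, against 7.53% of all genes), with a median of 0.79 (0.83 and 0.82 in the clone libraries). Besides Lefty1, Lefty2 and Nodal they included Cyr61, a matrix protein (1.41), and Thbs1, thrombospondin (1769 and 431 in the clones and 118 and 95.1 in B9, adjusted p = 0.00733). Smad7 at 0.01, Skil at -0.77 and Id1 at -0.17 were not called, and Cer1, another Nodal inhibitor, was below the filter. Of 21 components of the pathway 4 were higher and 0 lower (19% higher), with a median of 0.33, and with clone library 1, clone library 2, B9 library 1 or B9 library 2 left out 3, 1, 0 and 0 were higher and 2, 0, 0 and 0 lower. Leaving out 1 library lost the calls of Nodal, Tgfbr2 and Cyr61 without clone library 1, Nodal, Smad3, Foxh1, Tgfbr2 and Cyr61 without clone library 2, Nodal, Smad3, Foxh1 and Tgfbr2 without B9 library 1, and Nodal, Smad3, Foxh1, Tgfbr2 and Cyr61 without B9 library 2. The 16 tested BMP ligands and targets, the sister branch, had 1 member higher (Msx2; 6.25%, near the share of all genes), 0 lower and a median of -0.01. The call of Msx2 was lost without clone library 2 or B9 library 2 (highest adjusted p = 0.109).

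In the microRNA machinery 3 of 19 tested genes were higher and 0 lower (15.8% higher, against 7.53% of all genes). Without clone library 1 there were 5 higher and 3 lower. Tnrc6a, the scaffold that binds Argonaute and recruits deadenylases, had 8772 and 8604 normalised reads in the clones and 3792 and 3312 in B9 (log2 change 1.29, SE 0.206, adjusted p = 0.00477), and its introns changed by -0.12 (adjusted p = 0.899). Tnrc6b, its paralogue, changed by 0.96 (adjusted p = 0.0263), a call lost without B9 library 1 or B9 library 2 (highest adjusted p = 0.178). Mov10, an RNA helicase found with Argonautes, had 16776 and 17783 in the clones and 4233 and 5883 in B9 (log2 change 1.79, SE 0.266, adjusted p = 0.00356), and here introns changed by 1.71 (adjusted p = 0.129). Upstream, Dicer1 changed by 0.26 (adjusted p = 0.457), Drosha by 0.25 (adjusted p = 0.612) and Dgcr8 by -0.27 (adjusted p = 0.432).

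Of 25 regulators of the G1 to S passage 4 were higher (16%, against 7.53% of all genes) and 1 lower (4%, against 5.38%), with a median of 0.01. The number higher was 1 without clone library 2 or without B9 library 1. Besides Cdkn1a and Rbl2, the Cdk inhibitors Cdkn2a (581 and 1154 in the clones and 199 and 351 in B9, adjusted p = 0.0296) and Cdkn2b (306 and 277 in the clones and 83.4 and 122 in B9, adjusted p = 0.0294) rose, and the imprinted inhibitor Cdkn1c fell (40.5 and 54.7 in the clones and 281 and 107 in B9, adjusted p = 0.0356). The cyclins Ccnd1 (adjusted p = 0.994) and Ccne1 (adjusted p = 0.101) were not called. Of 19 p53 targets 3 were higher (15.8%; Cdkn1a, Btg2, Ei24) and 0 lower, and Mdm2 changed by -0.44 (adjusted p = 0.404). With 1 library left out, calls were lost for Cdkn1c without clone library 1, Cdkn2a, Cdkn2b and Cdkn1c without clone library 2, Cdkn2a, Cdkn2b and Cdkn1c without B9 library 1, and Cdkn2b without B9 library 2.

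The network of naive pluripotency was mostly not called. Of 22 genes 2 were higher (9.09%) and 1 lower (4.55%), close to the shares of all genes, with a median of -0.10. Klf2, a zinc-finger factor of the naive network, had 29674 and 43606 normalised reads in the clones and 8419.8 and 7903 in B9 (log2 change 2.14, SE 0.303, adjusted p = 0.0028). Prdm14, a repressor of differentiation genes, changed by 1.51 (adjusted p = 0.023) and Dppa3, a maternal-effect protein, by -1.73 (adjusted p = 0.0392). Of 11 genes of the formative and primed states 0 were higher and 2 lower (18.2%): Pou3f1, a POU factor (61.7 and 98.7 in the clones and 867 and 472 in B9, log2 change -3.02, SE 0.445, adjusted p = 0.00356), and the DNA methyltransferase Dnmt3a (-1.02, adjusted p = 0.0449). Lost calls, 1 library left out at a time, were Dnmt3a without clone library 1, Prdm14 and Dppa3 without clone library 2, Prdm14, Dppa3 and Dnmt3a without B9 library 1, and Dppa3 and Dnmt3a without B9 library 2.

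Among lineage genes, markers of primitive endoderm were lower where called. Of 15 tested 0 were higher and 3 lower (20%, against 5.38% of all genes), with a median of -0.92. E7 shared this difference from B9, with a list median of -1.32 for E7 against B9. Clones against E7 had a median of 0.58, with 1 member higher and 0 lower. Gata6, the factor that starts this lineage, had 0.964 and 2.67 normalised reads in the clones and 103 and 108 in B9 (log2 change -5.30, SE 0.705, adjusted p = 0.00235). AB2.2 had 65.9 and 74 and E7 8.09, 11.5 and 7.67, so E7 was low as well. Dab2, an endocytic adaptor, had 33.8 and 21.3 in the clones and 239.6 and 379 in B9 (log2 change -3.44, SE 0.44, adjusted p = 0.00202), and Cubn, an endocytic receptor, 12.5 and 64 in the clones and 266 and 237 in B9 (adjusted p = 0.018, lost without B9 library 1 or B9 library 2 (highest adjusted p = 0.0977)). Gata4 had 172 and 343 in the clones and 112 and 140.3 in B9 and was not called, and the summed level of the list was 23283.4 and 23322.9 in the clones and 21082.9 and 22277.5 in B9. The summed level was thus not lower in the clones. For the 3 genes that fell, fewer cells with their RNA and less RNA per cell cannot be told apart in bulk samples.

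Of 11 tested trophoblast genes 2 were higher (18.2%, against 7.53% of all genes), both keratins of simple epithelia. Krt8 had 2607 and 3103 normalised reads in the clones and 421 and 393 in B9 (log2 change 2.80, SE 0.34, adjusted p = 0.00161), and Krt19 1183 and 1658 in the clones and 433 and 233 in B9 (log2 change 2.14, SE 0.367, adjusted p = 0.00624). Krt18, the partner of Krt8, changed by -0.48 (adjusted p = 0.465), and the trophoblast regulators Cdx2 and Elf5 stayed low. Cdx2 had 1.93 and 8 in the clones and 3.83 and 0 in B9, and Elf5 28 and 8 in the clones and 3.83 and 0 in B9. Of 10 streak and mesoderm genes 0 were called. Of 8 neuroectoderm genes Pax6 (1.60) and Nes (1.62) were higher and Sox11 (-1.62) lower. Leaving out 1 library lost the calls of Nes without clone library 1, Pax6 and Sox11 without clone library 2, Pax6 and Sox11 without B9 library 1, and Pax6 and Nes without B9 library 2.

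Genes of the integrated stress response, the programme that Atf4 runs when amino acids are short, fell as a group of 9 of 23 with 0 higher (39.1% lower, against 5.38% of all genes). The median was -0.62, with -0.78 and -0.57 in the clone libraries. Atf4 had 5772 and 4625 normalised reads in the clones and 12502 and 11542 in B9 (log2 change -1.22, SE 0.251, adjusted p = 0.0133). Chac1, a glutathione-degrading enzyme induced by Atf4, had 31.8 and 50.7 in the clones and 408 and 386 in B9 (log2 change -3.27, SE 0.521, adjusted p = 0.00477). Trib3, a pseudokinase that curbs Atf4, had 319 and 616 in the clones and 1465 and 1564 in B9 (adjusted p = 0.02).

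The 3 enzymes of serine synthesis fell, with log2 changes of -1.54 for Phgdh, -1.12 for Psat1 and -1.22 for Psph. Asns, which makes asparagine, changed by -1.27, the mitochondrial folate enzyme Mthfd2 by -1.28 and the stress protein Nupr1 by -2.58. Atf3 at 0.75 and Ddit3 at -0.15, which mark acute stress, were not called (adjusted p = 0.518 and 0.861). The group is sensitive to single libraries, with 5, 7, 2 and 1 members called lower without clone library 1, clone library 2, B9 library 1 and B9 library 2. Chac1 kept its call in all 4, and the calls lost were those of Trib3, Asns, Psph, Mthfd2 and Nupr1 without clone library 1, Asns and Mthfd2 without clone library 2, Atf4, Trib3, Psat1, Phgdh, Psph, Mthfd2 and Nupr1 without B9 library 1, and Atf4, Trib3, Asns, Psat1, Phgdh, Psph, Mthfd2 and Nupr1 without B9 library 2.

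Glycolytic and hypoxia-induced genes showed 8 of 22 lower and 0 higher (36.4%), with a median of -0.80. They included the glucose carriers Slc2a1 (-1.10) and Slc2a3 (-1.56), the enzymes Hk2 (-0.82), Aldoa (-1.53), Pgk1 (-1.37) and Pgam1 (adjusted p = 0.0385), and the growth factor Vegfa (-1.74). E7 had no value for Slc2a3, Aldoa and Pgam1, whose fit rests on the other 6 libraries. Bnip3, a mitophagy receptor, had 1053 and 840.3 normalised reads in the clones and 3657 and 6629 in B9 (log2 change -2.39, SE 0.477, adjusted p = 0.0119). Without B9 library 2, 0 members were called lower, and without B9 library 1, 3. With 1 library left out, calls were lost for Hk2 and Vegfa without clone library 1, Slc2a3, Pgam1, Bnip3 and Vegfa without clone library 2, Slc2a1, Hk2, Aldoa, Pgk1 and Pgam1 without B9 library 1, and Slc2a1, Slc2a3, Hk2, Aldoa, Pgk1, Pgam1, Bnip3 and Vegfa without B9 library 2. Of 21 cholesterol synthesis genes 0 were called, with a median of -0.37.

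Imprinted genes went in both directions, 1 higher (5.56%) and 6 lower (33.3%) of 18, with a median of -0.98. Plagl1, a zinc-finger factor that regulates other imprinted genes, had 19076 and 5736 normalised reads in the clones and 1242 and 1111 in B9 (log2 change 3.15, SE 0.437, adjusted p = 0.00257). Its introns had 2466 and 825 in the clones and 103 and 94.7 in B9, so exon and intron both rose (intron log2 change 3.84, adjusted p = 0.00411). Plagl1 exons had 4889, 5121 and 6407 in E7. For these exons E7 against B9 was 2.21 (adjusted p = 0.0889), and clones against E7 0.94 (adjusted p = 0.221). Peg10, a gene derived from a retrotransposon, had 5462 and 5845 in the clones and 40687 and 18897 in B9 (log2 change -2.29, SE 0.38, adjusted p = 0.00814), with E7 dropped from its fit. Sgce, the neighbour that shares the promoter region of Peg10, had 22.2 and 16 in the clones and 105 and 162 in B9 (adjusted p = 0.0119).

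Mest, a hydrolase relative, had 1194 and 1006 in the clones and 4539.6 and 2352 in B9, and Usp29 changed by -1.78. Phlda2 and Cdkn1c, neighbours in 1 imprinted cluster, changed by -2.27 and -1.86. With 1 library left out, calls were lost for Phlda2 and Cdkn1c without clone library 1, Mest, Usp29, Sgce and Cdkn1c without clone library 2, Mest, Usp29, Phlda2 and Cdkn1c without B9 library 1, and Usp29, Phlda2 and Sgce without B9 library 2. Plagl1 and Peg10 kept their calls.

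In the matrix and cytoskeleton list the integrins that were called rose, and the actin-associated genes that were called fell. Of 26 tested members 7 were higher (26.9%) and 4 lower (15.4%), against 7.53 and 5.38% of all genes, with a median of 0.28. Itgb3, the integrin chain that pairs with Itgav, had 1306 and 2016 normalised reads in the clones and 42.2 and 155 in B9 (log2 change 4.31, SE 0.632, adjusted p = 0.00356). Itgav had 6875 and 4292 in the clones and 801 and 1817 in B9 (adjusted p = 0.0176), and Itgb5, another partner of Itgav, 1948 and 3005 in the clones and 674 and 467 in B9 (adjusted p = 0.00497). Itgb1 changed by 0.90, the laminin chain Lamc1 by 1.20 and the intermediate filament Vim by 2.11.

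The members that fell were the calponins Cnn1 (0.964 and 0 in the clones and 38.3 and 19.2 in B9) and Cnn2 (-1.17), the myosin light chain Myl9 (-1.80) and the tropomyosin Tpm2 (-1.72). Lost calls, 1 library left out at a time, were Itgav and Itgb1 without clone library 1, Vim and Cnn1 without clone library 2, Itgav, Itgb1, Lamc1, Cnn1, Cnn2, Myl9 and Tpm2 without B9 library 1, and Itgb1, Lamc1, Vim, Cnn1, Myl9 and Tpm2 without B9 library 2. Of 14 cadherin and epithelial-mesenchymal genes 4 were higher (28.6%) and 1 lower (7.14%). P-cadherin Cdh3 had 3659 and 5485 in the clones and 1183 and 1257 in B9 (log2 change 1.88, SE 0.339, adjusted p = 0.00788), and Esrp2, a splicing factor of epithelia, 932 and 1738 in the clones and 262 and 174 in B9 (log2 change 2.57, SE 0.38, adjusted p = 0.00356). Esrp1, its paralogue, changed by 1.48, the repressor of epithelial genes Snai1 by 2.63 and the tight-junction protein Cldn6 by -1.71, while E-cadherin Cdh1 at 0.83 was not called (adjusted p = 0.0655). Leaving out 1 library lost the calls of Esrp1 without clone library 1, Esrp1 and Snai1 without clone library 2, Esrp1, Snai1 and Cldn6 without B9 library 1, and Esrp1, Snai1 and Cldn6 without B9 library 2.

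Smaller lists had few calls, to be read against 7.53% of all genes higher and 5.38% lower. Of 12 tested interferon genes 3 were higher (25%) and 0 lower: Irf2, Irf9, the DNA-binding part of the interferon-activated factor (1763 and 1493 in the clones and 459 and 397 in B9, log2 change 1.92, SE 0.319, adjusted p = 0.00553), and Oasl2 (3.61). Of 16 Hippo genes Lats2, Lats1 (0.95) and Cyr61 were higher (18.8%) and 0 lower. Of 13 immediate early genes Jun (1.98) and Jund (8127 and 5544 in the clones and 1953 and 2352 in B9, adjusted p = 0.00583) were higher (15.4%) and 0 lower. Of 18 chromatin genes 3 were higher (16.7%), among them the Polycomb members Ezh1 (1.39) and Cbx8 (2.71), and 2 lower (11.1%), the methyltransferase Dnmt3a and its cofactor Dnmt3l (-1.55). Of 17 apoptosis genes Casp2 was higher (5.88%) and Bid (-1.09) lower (5.88%), shares near those of all genes. Of 15 RecQ and homologous repair genes only Blm was called lower (6.67%), and 0 were higher. Without clone library 1 there were 6 lower, and 0 without any 1 of the other 3 libraries. With 1 library left out, calls were lost for Oasl2, Lats1, Jun and Cbx8 without clone library 1, Oasl2, Ezh1, Cbx8, Dnmt3l and Bid without clone library 2, Oasl2, Lats1, Jun, Ezh1, Cbx8, Dnmt3l and Bid without B9 library 1, and Oasl2, Lats1, Jun, Ezh1, Cbx8 and Bid without B9 library 2.

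**Figure D4:**
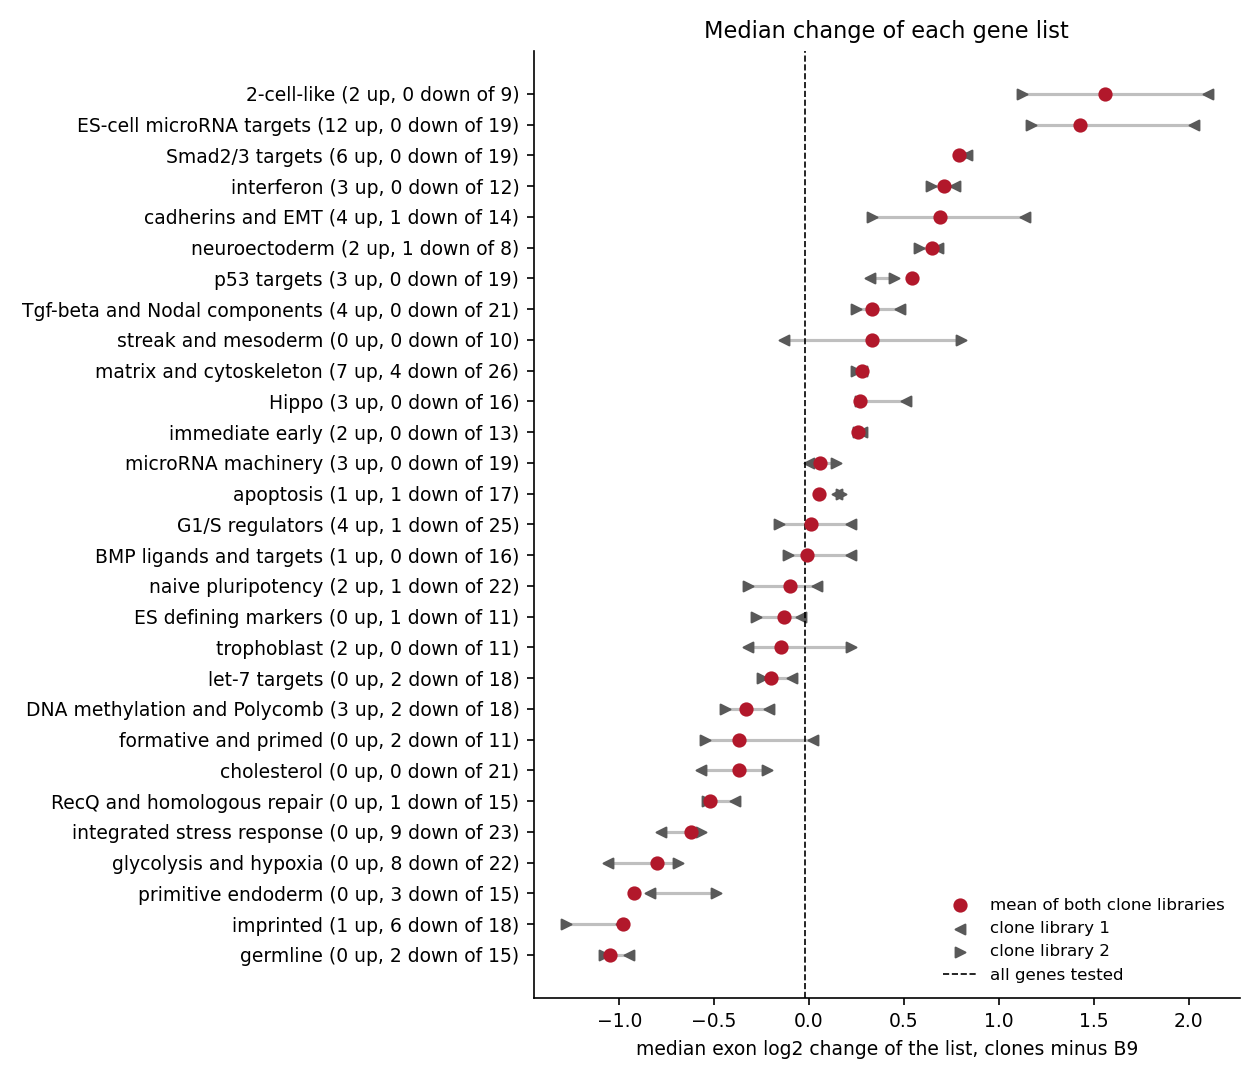
Log2 change of exon reads, clones over B9, as the median of each gene list with 8 or more tested genes, for the mean of both clone libraries (circles) and each clone library (triangles), with the median of all genes tested as a dashed line. The ES-cell microRNA targets lie to the right at 1.43, and the integrated stress response and glycolysis lists to the left at -0.62 and -0.80.

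The largest rises of all were partly genes that are silent in B9. Ido2, an enzyme of tryptophan breakdown (chr8:24531892-24576333), had 1977 and 618 normalised reads in the clones and 0 in both B9 libraries, at least 451-fold above the floor of 3 reads per library. E7 had 13.1, 4.6 and 0. Alox12e, an arachidonate lipoxygenase (chr11:70315610-70322628), had 964 and 1901 in the clones and 23 and 7.69 in B9 (log2 change 6.55, SE 0.935, adjusted p = 0.00298). Megf11, a cell-surface protein with EGF-like repeats (chr9:64385626-64709205), had 1439.5 and 2259.6 in the clones and 28.8 and 61.5 in B9 (log2 change 5.39, SE 0.661, adjusted p = 0.00164), and its introns 1088 and 1664 in the clones and 45.1 and 105 in B9 (adjusted p = 0.00263).

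Chit1, a chitinase, had 353 and 392 normalised reads in the clones and 3.83 and 5.77 in B9 (log2 change 6.03, SE 0.949, adjusted p = 0.00465). Pglyrp1, which binds bacterial peptidoglycan, had 123 and 156 in the clones and 1.92 and 1.92 in B9. Dhrs9, a retinol dehydrogenase, had 52.6 and 85.4 in the clones and 0 in both B9 libraries, at least 24-fold above the floor. Nfe2, a leucine-zipper factor of blood cells, had 91.6 and 98.7 in the clones and 0 and 1.92 in B9 (adjusted p = 0.00544), where the B9 value is 2 reads. Adgrg6, an adhesion receptor, had 907 and 380.2 in the clones and 15.3 and 15.4 in B9. The others of the 15 largest rises were Irf2, Nr2f2, Esr1, Adgrg3, Aox3, Nipal2 and Adh7. With 1 library left out, the calls of Dhrs9, Adgrg6 and Nipal2 were lost without clone library 1. Without clone library 2 the lost calls were Pglyrp1, Adgrg6, Adgrg3, Aox3, Nipal2 and Adh7, and Dhrs9 had no test. Without B9 library 1 they were Pglyrp1, Dhrs9, Adgrg6, Adgrg3 and Nipal2. Without B9 library 2 they were Pglyrp1, Dhrs9, Adgrg6, Aox3, Nipal2 and Adh7.

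The largest fall was that of Gap43, a growth-cone protein of neurons (chr16:42248442-42340651), with 3.86 and 5.34 normalised reads in the clones and 789 and 513 in B9 (log2 change -6.84, SE 0.664, adjusted p = 0.000674). E7 had 1022, 733 and 203, and the fall against E7 was -6.59 (adjusted p = 0.000969). Pla2g1b, a secreted phospholipase (chr5:115466262-115474722), had 14 and 33.3 in the clones and 797 and 612 in B9 (log2 change -4.95, SE 0.426, adjusted p = 0.000333), and its introns fell with it, at 48.4 and 123 in the clones and 1545 and 930.1 in B9 (adjusted p = 0.00263). Klk8, a serine protease, had 11.6 and 5.34 in the clones and 329.7 and 405 in B9 (log2 change -5.36, SE 0.517, adjusted p = 0.000674), and Steap1, a metalloreductase, 18.3 and 8 in the clones and 362 and 369 in B9 (log2 change -4.80, SE 0.491, adjusted p = 0.000821). In all 4 genes both clones lay below every B9 library, as the rule that chose them required.

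The X-linked ubiquitin proteases Usp26 and Usp51 fell too. Usp26 had 25.1 and 2.67 normalised reads in the clones and 354 and 1313 in B9 (adjusted p = 0.00331), and Usp51 4.82 and 0 in the clones and 109 and 145 in B9 (adjusted p = 0.00257). E7 was low in Usp26 as well, at 32.4, 46 and 90.7. Clones against E7 was -2.42 for Usp26 (adjusted p = 0.151) and -4.69 for Usp51 (adjusted p = 0.0153). The others of the 15 largest falls were Lin28a, Gata6, Zfy1, Rtp3, the phosphatase subunit Ppp1r3c, the vesicular acetylcholine carrier Slc18a3, the microsomal enzyme Mgst1, the meiotic helicase Hfm1 and the carbonic anhydrase Car4, with log2 changes of -5.30 to -4.36 outside Lin28a. Leaving out 1 library lost the calls of Slc18a3 without clone library 1, Slc18a3 without clone library 2, Slc18a3 and Car4 without B9 library 1, and Rtp3, Ppp1r3c, Slc18a3, Mgst1 and Hfm1 without B9 library 2.

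Introns gave far fewer calls, 145 of 11464 genes (1.26%), 96 higher (0.837%) and 49 lower (0.427%). The balance turned with either clone library left out: 78 were higher and 151 lower without clone library 1, and 13 higher and 18 lower without clone library 2. Introns mostly had the sign of the exon change without being called. Of 894 genes with higher exons that were tested in introns, 831 (93%) had a positive intron change, 77 were called in introns, and the medians were 1.57 for exons and 1.04 for introns. Of 609 with lower exons, 567 (93.1%) had a negative intron change, 39 were called, and the medians were -1.44 and -0.84. The intron calls, from which examples were chosen after their values were seen, include the muscle methyltransferase Smyd1 (1888 and 1644 in the clones and 274 and 126 in B9, log2 change 3.24, SE 0.366, adjusted p = 0.00263), and the Polycomb-associated Sfmbt2 among the falls, with exons at 402 and 487 in the clones and 3959.7 and 2157 in B9 (intron log2 change -2.81, adjusted p = 0.00316). E7 was like the clones in Smyd1 exons, with 2365, 2547 and 4126 in E7 and 3626 and 2586 in the clones. For these exons E7 against B9 was 2.69 (adjusted p = 0.00875), and the clones against E7 0.07 (adjusted p = 0.918).

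Exon minus intron, which sets apart changes that unspliced RNA does not share, gave 0 calls of 11196 genes in limma, with 1224 genes at an unadjusted p below 0.05. The smallest adjusted p of 0.172 was shared by Ankrd52, Spryd3 and Ago2, named after their values were seen. Ankrd52, a regulatory subunit of protein phosphatase 6, had exons at 8410.4 and 15419.7 in the clones and 1196 and 1511 in B9 (log2 change 3.08, SE 0.312, adjusted p = 0.00081) and introns at 174 and 285 in the clones and 138 and 160.5 in B9. Spryd3 had exons at 1453 and 2612 in the clones and 408 and 511 in B9, and introns at 97.9 and 189.7 in the clones and 125 and 140.3 in B9. For Ago2 the introns and not the exons differed.

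E7 lacks the mouse Argonautes and carries CreERT2 like the clones, but keeps human Ago2. Its values against B9 and against the clones rest on shared libraries and are only set side by side. Clones against E7 gave 198 calls of 13142 genes (1.51%), 94 higher and 104 lower, and E7 against B9 gave 9 (0.0685%), all higher. Lats2 was higher than in E7 by 2.56 (adjusted p = 0.00269), and E7 against B9 was 1.32 (adjusted p = 0.124). Lin28a was -4.11 against E7, with E7 at -0.74 against B9 (adjusted p = 0.561). Esr1, by contrast, differed from E7 by 0.72 (adjusted p = 0.576), and Gata6 by -1.89 (adjusted p = 0.155). Without E7 library 2 there were 16 calls and without clone library 1 2103.

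A loss of Ago2 by another route came from TT-FHAgo2 cells, in which doxycycline drives Ago2 in the background Blm-/-;Ago1,2,3,4-/-;CreERT2. They spent 48 h at 2.5 µg/mL doxycycline and then 96 h without it (n = 2) or 0 h (n = 2), and the 96 h cells were 96 h longer in culture. These libraries share none with the clones or B9, CreERT2 is on both sides, and the table was normalised apart, so only changes are set side by side. At 96 h against 0 h 8867 of 13652 genes (65%) were called, 4426 higher (32.4%) and 4441 lower (32.5%).

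Of 995 genes higher in the clones and tested in both, 927 (93.2%) were also higher at 96 h, where 33.2% of all such genes were. They are 21.2% of the 4373 genes higher at 96 h. Of 712 lower in the clones 635 (89.2%) were lower at 96 h, where 33.3% of all genes were, and they are 14.5% of 4385. Called in the opposite direction at 96 h were 5 of the higher and 15 of the lower genes. At 2-fold in both, 453 were higher (50.2% of 902 in the clones, 40.3% of 1125 at 96 h) and 174 lower (27.7% of 628, 29.2% of 596). Over the 13187 genes, which are not independent replicates, Pearson's r of the log2 changes was 0.719 and Spearman's coefficient 0.676.

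Gene by gene, Lats2 had 2718 and 2289.8 normalised reads at 96 h and 643 and 687 at 0 h (log2 change 1.91), and Lin28a 3541 and 3676 at 96 h and 31348 and 31030.2 at 0 h (log2 change -3.11). Lefty1 changed by 2.74, Lefty2 by 2.51 and Cdkn1a by 2.42. Irf2 had 316 and 360.5 at 96 h and 13.5 and 6.56 at 0 h. Of the 19 ES-cell microRNA targets 18 were higher at 96 h, with a median of 1.41, against 33.2% of all genes tested in both. Of 23 genes of the integrated stress response 21 were lower at 96 h and 1 higher, with a median of -0.90, and of 18 imprinted genes 13 were lower and 1 higher (33.3% of all genes were lower).

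Other changes of the clones were smaller or of mixed direction at 96 h. Of 22 glycolytic and hypoxia genes 12 were lower and 7 higher at 96 h, with a median of -0.25, and of 14 primitive endoderm genes 4 were lower and 6 higher, with a median of 0.49. Among all genes tested in both, 33.3% were lower and 33.2% higher, and the primitive endoderm counts lay near these shares. Gata6 changed by -0.42 (adjusted p = 0.582) and Bnip3 by -0.01 (adjusted p = 0.918). Ido2 had 67 and 66.5 at 96 h and 17.4 and 15.3 at 0 h, and Esr1 497 and 457 at 96 h and 397 and 386 at 0 h. Ddx3y, near 0 in clone library 1, changed by 0.04 (adjusted p = 0.572).

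**Figure D5:**
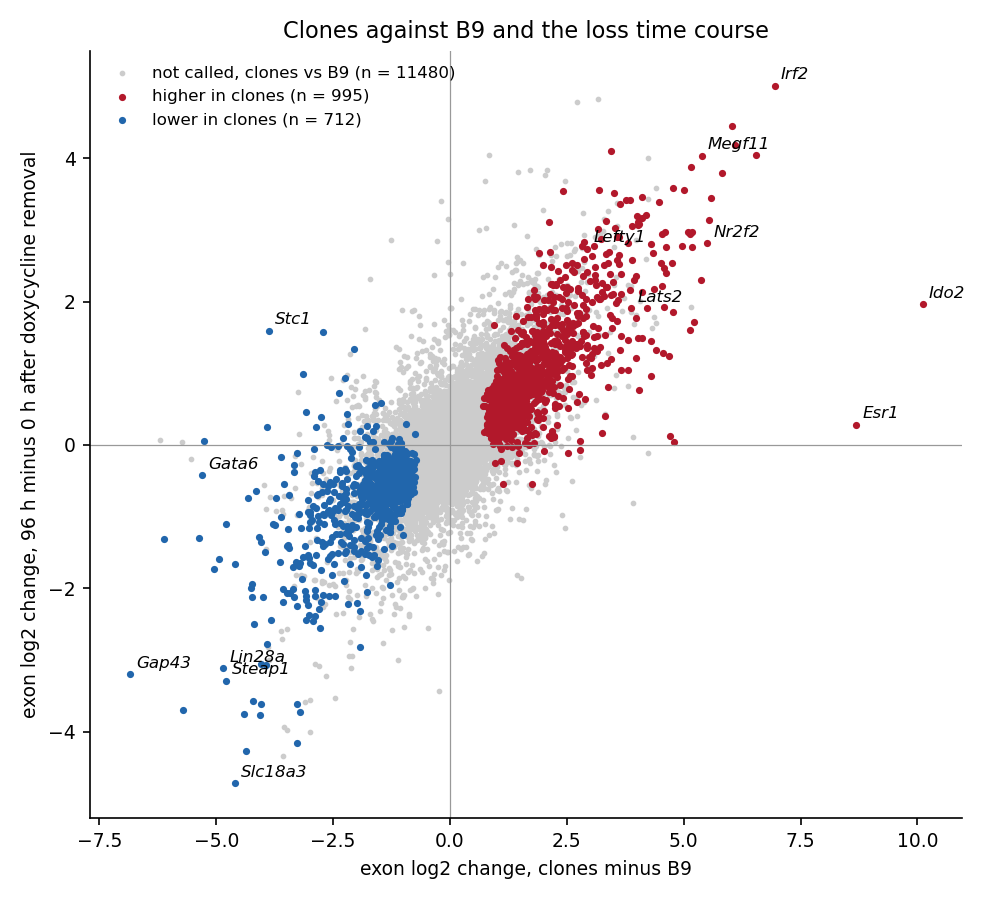
Log2 change of exon reads 96 h against 0 h after doxycycline removal (y) against log2 change of clones over B9 (x), 1 point per gene, for genes higher in the clones (995), lower (712) and not called (11480). Most coloured points lie where both changes have 1 sign: 927 of 995 higher and 635 of 712 lower genes were called the same way at 96 h.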

How the data were processed

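Strand-specific RNA sequencing covered 23 samples, of which the 9 libraries of the 4 genotypes and the 0 h and 96 h libraries of the loss time course were compared, from 3 of 6 deposited tables. Each column holds 1 signal per gene and group, the authors' mean of normalised reads, per the file headers, with exons and introns in separate tables. The submitters' processing notes name TopHat2 2.0.12, DESeq without a version, and mm10. The read counter is not given in the sources used here.

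To get library values, each mean was solved as whole reads times a step for each library. Of 220944 values 220842 (99.954%) had 1 solution, at a relative misfit of no more than 5.12e-15, and 101 E7 exon values with several are missing from the fit. They hold 17.7% of the E7 exon signal. Of 11 markers that define ES cells 5 had E7 values, and of 22 naive pluripotency genes 15. The resulting size factors lay at 0.998 to 1.002 times medians of ratios. Exon and intron libraries were matched within a group by how they deviated together across genes.

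limma 3.58.1 in R 4.3.3 (trended prior) was run on log2(value + 1) of the deposited signal, solved per library, over the 4 genotypes together, and likewise over the 4 times of the loss time course. Genes averaging 10 normalised reads or more entered, and a Benjamini-Hochberg adjusted p below 0.05 was a call. The design had foreseen tests of counts as alternatives. The files hold another unit, so these were left out. The procedure was tested on simulated data, where it missed most 2-fold changes, found most 4-fold ones, and made false calls at a higher rate than the threshold names. Exon depth was 13.5 to 53.7 M reads, the median SE of a log2 change 0.368, and floors of 3 reads cover counting error only. UTRs came from GRCm38, where 18025 genes matched by symbol, 323 by an older one and 64 did not. Named genes were the targeted genes, the 15 called genes with the largest rise and the 15 with the largest fall among those without overlap and with a higher group of at least 50, and called or defining members of 32 lists. Members and lists were chosen with earlier results of these data known. A few members of these lists are not reported here by name.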

Additional observations from a re-analysis of the deposited data

How the results depend on the processing

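Every call of clones against B9 kept its direction where it was called again under the alternatives run. For all 1710 calls both clone libraries lay on 1 side of both B9 libraries. Leaving out 1 library, library weights or another pseudocount could therefore not turn the sign. Under all 13 alternatives 249 genes (184 higher, 65 lower) were called. Against 1710 exon calls, the fit of the 2 groups alone gave 1065, of which 950 were among the 1710, and weights per library 543. Other settings gave 1433 to 1894: pseudocounts of 0.5 and 8 gave 1669 and 1806, no filter 1433, a filter of 50 gave 1679, median-of-ratios scaling 1710 and TMM 1684. The intron share as a covariate, chosen after seeing the data, gave 1894. Without a new fit, 1571 of the 1710 calls lay outside chromosomes 8 and Y. Leaving out 1 library gave 405 to 3453. Without clone library 1 44.7% of calls were higher, and with the 2 groups alone 66.4%, against 58.3% in the reported fit. The 145 intron calls became 85 without a filter, 278 in the fit of the 2 groups, 69 with weights, and 31 to 229 with 1 library left out, where 34.1% of calls were higher without clone library 1 and 41.9% without clone library 2, against 66.2% in the reported fit. Exon minus intron gave 1 call with a pseudocount of 8 and 3 with a filter of 50. The 198 calls against E7 became 60 in the fit of those 2 groups, 18 with weights, and 16 to 2103 with 1 library left out. The 96 h against 0 h counts were 7955 to 8908. Of 121 named or listed called genes, 37 were called under every alternative and 84 lost their call in at least 1. That 0 reversed follows largely from the lack of overlap between clone and B9 libraries. The causes of these shifts were not tested. The edgeR and DESeq2 alternatives were not run, because the values are means of normalised reads. No paired analysis was possible because the columns carry no replicate numbers. Depth of 19.5 M reads in clone library 2 limits genes of low level.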

Other observations

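Germline genes, most of them methylated and silent in somatic cells, were lower as a list in the clones than in B9, without many calls. Of 15 tested members 0 were higher and 2 lower (13.3%, against 5.38% of all genes), and the median was -1.05. E7 was low as well, with a median of -0.97 against B9, and the clones against E7 had a median of -0.05. The summed level was 4151 and 3363 normalised reads in the clones, 7809 and 8118 in B9, 4005, 4333 and 4782 in E7 and 6501 and 6839 in AB2.2. Sycp3, a protein of the meiotic chromosome axis, had 17.4 and 2.67 in the clones and 84.4 and 290.2 in B9 (adjusted p = 0.0161), and Taf7l, a germ-cell transcription factor subunit, 23.6 and 5.34 in the clones and 52.7 and 148 in B9 (adjusted p = 0.0486). At 96 h of Ago2 loss 12 of the 15 were lower and 1 higher, where 33.3% of all genes were lower and 33.2% higher. Calls lost with 1 library left out were those of Sycp3 and Taf7l without clone library 2, Taf7l without B9 library 1, and Sycp3 and Taf7l without B9 library 2.

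Genes of the rare 2-cell-like state had 2 of 9 members higher (22.2%, against 7.53% of all genes) and 0 lower, with a median of 1.56. E7 shared this difference from B9, with a median of 1.47 for E7 against B9 and 0.08 for the clones against E7. Zscan4c, a member of a cluster of near-identical genes, had 649 and 296 normalised reads in the clones and 135 and 109.5 in B9 (adjusted p = 0.0454), and Usp17la 179.9 and 131 in the clones and 34.5 and 28.8 in B9 (adjusted p = 0.0458). Both belong to families whose copies share reads, so the split among them is uncertain, and 0 members of the list were called in any of the 4 fits that left out 1 library.

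A few genes went in opposite directions in the clones and after 96 h of Ago2 loss, and they were picked out after their values were seen. Stc1, a secreted calcium-regulating hormone, had 3.86 and 0 normalised reads in the clones and 24.9 and 39.4 in B9, but 13.6 and 35.2 at 96 h and 3.87 and 10.9 at 0 h. Tnfsf9, a ligand of T cell costimulation, changed by -2.72 in the clones and 1.58 at 96 h. Hivep2, a zinc-finger factor, moved the same way in both, with 792 and 619 in the clones and 49.8 and 73 in B9, and log2 changes of 3.52 and 3.51.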
